A study of Mus musculus with 12 samples.

Results

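The Hox genes of the 4 mouse clusters A, B, C and D were followed in embryonic stem cells by their place in a cluster and their paralog number. The members were all probes whose transcript accession mapped to a listed Hox symbol: 38 genes, out of 20660 genes with a probe on the arrays of RA and DMSO and 18749 on the arrays of VC and ddH2O. The first array design carried a probe for 38 of 38 members (41 probes) and the second for 35 of 38 (45 probes), with none for Hoxc4, Hoxc6 and Hoxc11. All 12 samples were J1 mouse embryonic stem cells, a line adapted to growth on gelatin, in medium with 1000 U/mL of LIF, the cytokine that keeps these cells self-renewing. In the RA group, 3 samples received 1 μM retinoic acid for 24 h, and 3 samples of the DMSO group received 1 μL of the solvent. In the VC group, 3 samples received 50 μg of vitamin C for 24 h, and 3 samples of the ddH2O group received 1 μL of water. The labels give no volume for the vitamin C amount.

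Hox genes encode homeodomain transcription factors that set positional identity along the body axis. Within each cluster the genes lie in the order of their paralog numbers, and low numbers tend to be switched on earlier and further forward in the embryo than high numbers, a relation called colinearity. In pluripotent cells the clusters are covered by Polycomb repressors, and retinoic acid, acting through nuclear receptors bound to DNA, is a classical inducer of the low-numbered members.

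RNA was labelled with 1 dye and hybridised to Agilent arrays. A level below is the log2 of the processed spot intensity minus the 75th percentile of its array, so that 1 unit is a 2-fold step and 0 is the 75th percentile. Levels of different genes come from different probes and are not set against each other. The share of probes well above background ranged from 60.8% to 65.6% over the RA and DMSO arrays and from 66.9% to 70.3% over the others, and no spot was saturated. Pearson correlations over genes were 0.9918 to 0.9975 within and 0.8982 to 0.9033 between RA and DMSO, and 0.9949 to 0.9974 within and 0.9925 to 0.9955 between VC and ddH2O. The 3 DMSO arrays shared 1 slide and the 3 RA arrays a different one, and in that comparison slide and treatment cannot be told apart. Whether samples within a group came from separate cultures is not stated, so the p-values reflect only how far these samples scatter, which could be technical. Of the defining pluripotency markers, 10 of 10 were measurable on the RA and DMSO arrays and 8 of 8 with a probe on the VC and ddH2O arrays.

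To show the sequence next to genes that behaved differently, the 250 bases upstream of 4 transcription starts are given from RefSeq (GRCm38.p6), 5′ to 3′ on the gene's strand. Under the processing used here, Hoxb8 rose in RA by a log2 difference of 10.39, and Hoxd4, dim on every DMSO array, at least 340-fold. Hoxd9 and Hoxd10 are neighbours, of which the first was well above background on all 3 RA arrays and the second on none. Capitals mark the nuclear receptor hexamer (AGGTCA or AGTTCA on either strand), which is a match of letters only. The windows are chr11:96281655-96281904 (plus strand) for Hoxb8, chr2:74721728-74721977 (plus strand) for Hoxd4, chr2:74697513-74697762 (plus strand) for Hoxd9 and chr2:74691641-74691890 (plus strand) for Hoxd10.
Hoxb8: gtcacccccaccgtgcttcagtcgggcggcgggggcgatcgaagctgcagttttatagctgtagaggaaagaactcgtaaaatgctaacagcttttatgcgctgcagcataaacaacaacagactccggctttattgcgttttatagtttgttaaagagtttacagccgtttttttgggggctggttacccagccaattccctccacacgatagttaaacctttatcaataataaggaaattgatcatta
Hoxd4: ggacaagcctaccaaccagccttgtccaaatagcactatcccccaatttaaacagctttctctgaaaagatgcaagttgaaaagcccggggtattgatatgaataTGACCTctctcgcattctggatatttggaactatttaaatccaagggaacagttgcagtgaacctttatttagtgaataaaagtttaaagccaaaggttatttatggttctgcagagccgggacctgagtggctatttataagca
Hoxd9: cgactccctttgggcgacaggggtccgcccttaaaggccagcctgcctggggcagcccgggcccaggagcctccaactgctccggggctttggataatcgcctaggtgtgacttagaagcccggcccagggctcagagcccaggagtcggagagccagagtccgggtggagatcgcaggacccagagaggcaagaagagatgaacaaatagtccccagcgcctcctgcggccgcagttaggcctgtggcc
Hoxd10: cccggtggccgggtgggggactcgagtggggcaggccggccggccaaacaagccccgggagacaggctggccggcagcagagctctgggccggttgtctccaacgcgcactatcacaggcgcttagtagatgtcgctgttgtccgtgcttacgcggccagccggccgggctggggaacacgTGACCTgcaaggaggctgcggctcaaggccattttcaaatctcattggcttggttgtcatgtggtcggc
Hoxd4 held the reverse complement TGACCT from position -145 and Hoxd10 from position -69, counted from the start, while Hoxb8 and Hoxd9 held no match.

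RefSeq windows of 250 bases before to 50 after a start were found for 22 of 38 members (24 windows). The hexamer lay in 8 of 24 Hox windows (33.3%) and in 27.7% of all 32851 windows. Among the windows of members that rose in RA, 7 of 16 (43.8%) held one, and among those of members too dim to test, 1 of 8 (12.5%). Besides Hoxd4 and Hoxd10, the matches were in Hoxa5, Hoxb4, Hoxc4, Hoxd3, Hoxd8 and Hoxd13. Direct repeats of the hexamer spaced by 1, 2 or 5 bases were in 0 of 24 Hox windows, against 0.0822%, 0.0396% and 0.0396% of all windows. A TATAAA on the plus strand lay in 1 Hox window (4.17%), that of Hoxd13, against 8.32% of all. Hox windows held a median of 14.5 CG dinucleotides (range 4 to 45), against 7 (0 to 67) over all windows.

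Before any comparison, the arrays differed in which Hox genes could be measured. In DMSO, 20 of 38 members were well above background on all 3 arrays, 3 on some and 15 on none. The 20 were Hoxa2 to Hoxa7 and Hoxa9, Hoxb1 to Hoxb7, Hoxb9 and Hoxb13, Hoxc4 and Hoxc13, and Hoxd1 and Hoxd13. In RA the counts were 29, 1 and 8. In ddH2O they were 18, 5 and 12 of 35, and in VC again 18, 5 and 12. The 2 control groups shared 16 members measured on all 3 arrays, which is 80% of the DMSO set and 88.9% of the ddH2O set, although the designs carry different probes for many genes. Hoxa2, Hoxa5, Hoxc4 and Hoxc13 were measured throughout in DMSO alone (Hoxc4 has no probe on the other design), and Hoxc12 and Hoxd4 in ddH2O alone.

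**Figure D1:**
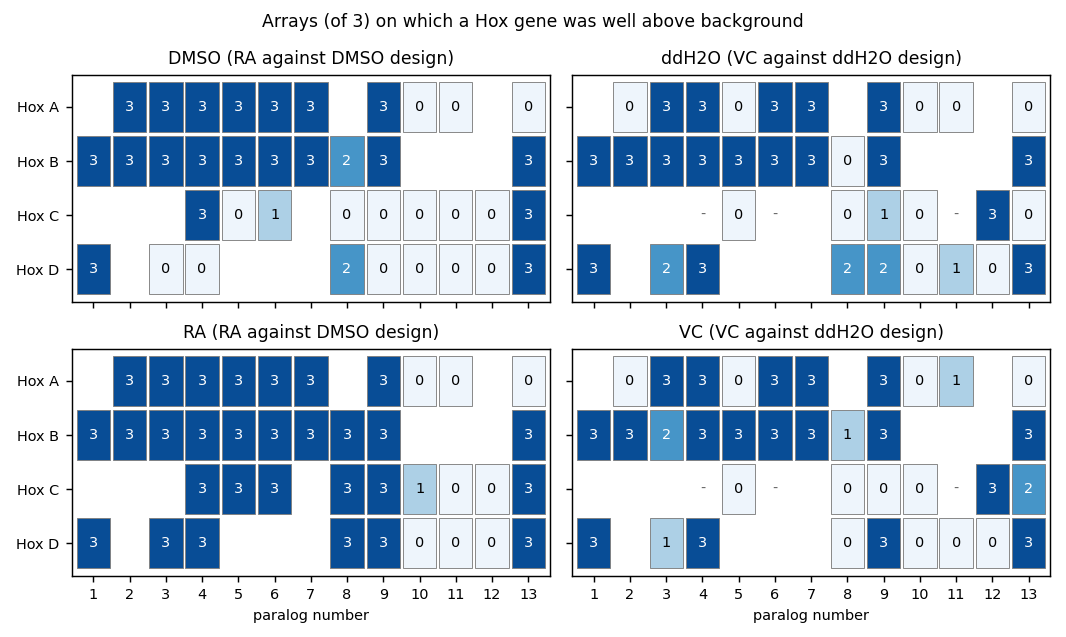
Number of arrays, of 3, on which any probe of a Hox gene was well above background, by cluster (rows) and paralog number (columns), in DMSO, RA, ddH2O and VC. Darker squares mean more arrays, a dash means no probe on the design, and a blank means that no member was listed there; in RA every member of paralogs 1 to 9 reached 3 of 3 arrays, while paralogs 10 to 12 stayed at 0 or 1.

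The Hox clusters were higher in RA almost throughout their low-numbered and central parts. Of the 38 members, 27 rose, 1 fell (Hoxb13), 1 was tested and did not pass (Hoxc13), and 9 were too dim to test. All genes of the array gave a background of 35.9% called higher and 42.1% called lower among 16015 tested, by limma with Benjamini-Hochberg adjustment at 0.05, so a call alone is common in this comparison. Of the 29 tested members, 26 were higher without overlap between the 3 RA and the 3 DMSO arrays, against 37.4% of all genes tested. Members dim in DMSO passed the filter on low values only through RA and so had to differ. The 3 members measured on some DMSO arrays also needed RA arrays to pass. In a fit limited to the 14401 genes well above background on all 6 arrays, 20 members were tested and 18 rose, where 35.8% of all genes were called higher, and the median log2 difference was 5.20 against -0.09 over all genes of that fit. The SD over the 3 arrays of a group had a median of 0.15 in RA and 0.17 in DMSO across tested members.

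**Figure D2:**
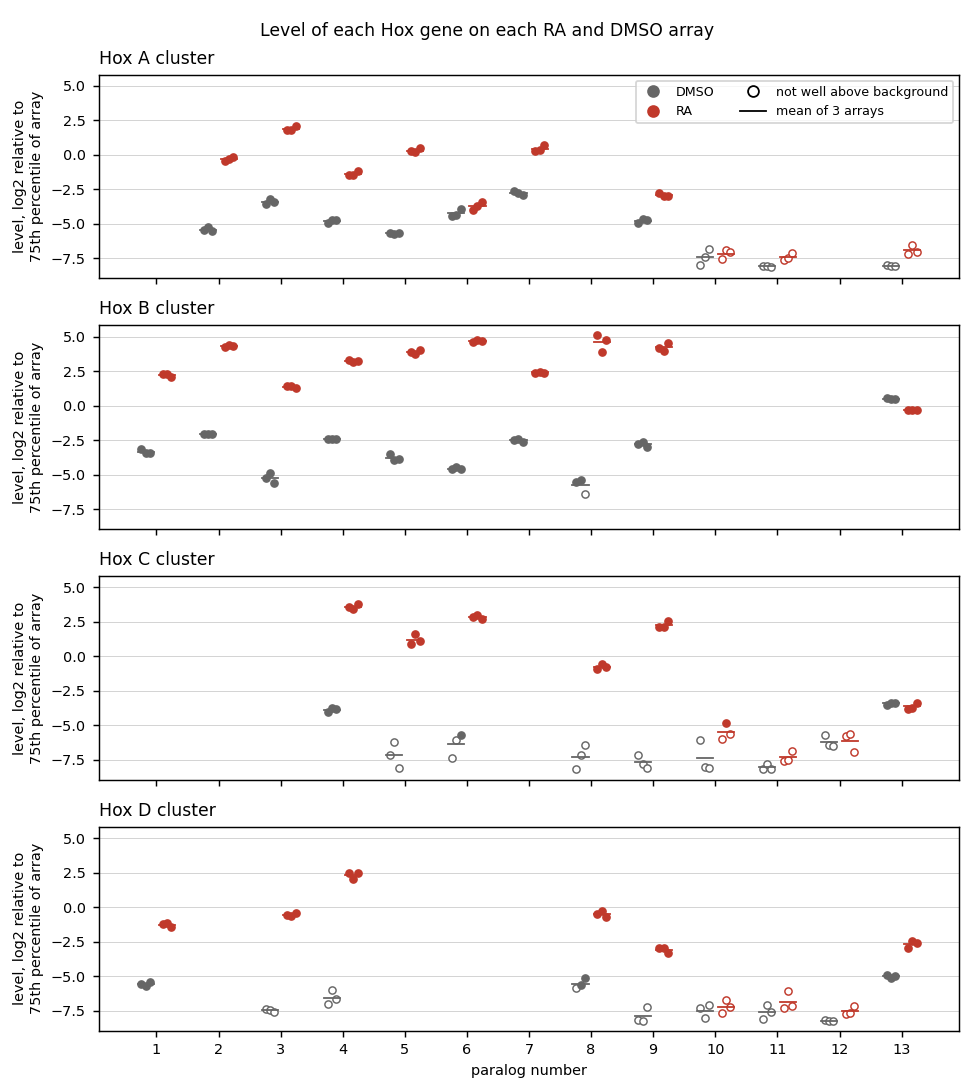
Level of each Hox gene on each of 3 DMSO (grey) and 3 RA (red) arrays, in log2 units relative to the 75th percentile of the array, by cluster and paralog number. Open circles were not well above background and short lines are group means; RA lies above DMSO without overlap for paralogs 1 to 9 except Hoxa6, both groups lie near the bottom for paralogs 10 to 12, and Hoxb13 is the 1 gene with RA below DMSO on every array.

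In cluster B, on chromosome 11, 9 of 10 members rose, all of paralogs 1 to 9, and the range of differences ran from -0.83 to 10.39. Hoxb8, which acts in myeloid progenitors and in trunk patterning, had levels of -5.53, -5.40 and -6.41 in DMSO and 5.15, 3.91 and 4.75 in RA. The groups were far apart although RA replicate 2 was the lowest of its group and DMSO replicate 3 was not well above background. The log2 difference was 10.39 (SE 0.39, n = 3 per group, limma adjusted p = 2.25e-06), or 1339-fold. With DMSO signal near background this size depended on the processing, from 7.67 to 10.73 over the alternatives. Hoxb8 passed the filter on low values only with the help of RA arrays, so its p-value is not taken as support. Hoxb6, a trunk gene, had -4.63, -4.46 and -4.63 in DMSO and 4.64, 4.78 and 4.69 in RA, with both groups tight and well separated. Its difference was 9.27 (SE 0.08, adjusted p = 3.95e-08), 618-fold. Hoxb5, needed in the vagal neural crest that forms the enteric nervous system, had -3.53, -3.94 and -3.86 in DMSO and 3.88, 3.74 and 4.0 in RA, again without overlap. Its difference was 7.65 (SE 0.13, adjusted p = 1.44e-07), 201-fold. The others, from the hindbrain gene Hoxb1 (5.53) through Hoxb2 (6.40), Hoxb3 (6.60), Hoxb4 (5.65) and Hoxb7 (4.92) to Hoxb9 (7.05), rose by log2 differences between 4.92 and 7.05. Another Hoxb3 probe gave 6.64.

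The fall of Hoxb13, the most 5′ gene of cluster B and a factor of tail bud and prostate, stood apart from its neighbours. Its levels were 0.56, 0.50 and 0.47 in DMSO and -0.32, -0.29 and -0.34 in RA. Each RA array was below each DMSO array, with little spread in either group. The log2 difference was -0.83 (SE 0.06, adjusted p = 2.87e-05), or 1.78-fold lower.

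In cluster C, on chromosome 15, 5 of 9 members rose, all of paralogs 1 to 9, with a median of 7.91 over the 6 tested, or 7.38 with members at their lower bound. Hoxc9, which sets thoracic identity in spinal motor neurons, had -7.18, -7.83 and -8.07 in DMSO and 2.11, 2.15 and 2.57 in RA. No DMSO array was well above background, so under the processing used here the change is at least 329-fold. Here "at least" sets the RA mean against the dimmest signal well above background on each DMSO array, or the probe's own where higher. Such a bound holds for this processing only, and the alternatives reached smaller differences. The fitted log2 difference was 9.97 (SE 0.25, limma adjusted p = 4.46e-07), and 5.35 to 10.23 over the alternatives. Hoxc9 passed the filter on low values only through RA, as did Hoxc5 below, so their p-values add no support. Hoxc6, a gene of the brachial spinal cord, had -7.37, -6.08 and -5.71 in DMSO, of which 1 array was well above background, and 2.89, 3.02 and 2.72 in RA. The groups were widely separated, with a difference of 9.26 (SE 0.42, adjusted p = 4.53e-06). Over the alternatives that difference was 6.05 to 9.60. Hoxc6 also needed RA arrays to pass the filter on low values, so its p-value is not taken as support. Hoxc5, a cervical member, had -7.13, -6.22 and -8.09 in DMSO, all dim, and 0.89, 1.61 and 1.14 in RA. It rose at least 158-fold (fitted difference 8.36, SE 0.47, adjusted p = 1.16e-05), and here the DMSO spread was the wider one. The alternatives gave differences of 4.435 to 8.821. Hoxc4, measured on every array, rose by 7.47 (SE 0.12), and Hoxc8, dim in DMSO, at least 40.6-fold (fitted 6.53, SE 0.42). For Hoxc8 the alternatives gave 2.76 to 6.94.

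Hoxc13, a gene of hair and nail, was the tested member that did not pass. It had -3.51, -3.36 and -3.35 in DMSO and -3.79, -3.71 and -3.36 in RA. RA replicate 3 lay at the DMSO level and the other RA arrays were below it. The log2 difference was -0.22 (SE 0.13, 95% confidence interval -0.53 to 0.09, adjusted p = 0.163), and without RA replicate 3 it was -0.35 and passed. It also passed as lower under 4 other scalings (-0.70 to -0.55), and as higher under another background correction (0.31).

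In cluster D, on chromosome 2, 6 of 9 members rose, with a median of 4.92 over the 6 tested (4.67 at the bounds). Hoxd4, a hindbrain gene with known retinoic acid response elements, had -7.00, -6.03 and -6.66 in DMSO, none well above background, and 2.51, 2.06 and 2.46 in RA. It rose at least 340-fold under the processing used here (fitted difference 8.91, SE 0.26, limma adjusted p = 8.05e-07). Over the alternatives the difference was 5.34 to 9.17. Hoxd4 passed the filter on low values only through RA, as did Hoxd3 below, so their p-values add no support. Hoxd3, needed for the first cervical vertebra, had -7.40, -7.44 and -7.58 in DMSO, all dim, and -0.55, -0.67 and -0.43 in RA. Both groups were tight, and the rise was at least 46.4-fold (fitted 6.92, SE 0.09, adjusted p = 8.76e-08). For Hoxd3 the alternatives gave 2.79 to 6.96. Hoxd8 had -5.87, -5.63 and -5.13 in DMSO, with 2 of 3 arrays well above background, and -0.50, -0.27 and -0.71 in RA. Its difference was 5.05 (SE 0.21, adjusted p = 3.25e-06), and the lowest RA array was above the highest DMSO array. Hoxd8 also needed RA arrays to pass the filter on low values, so its p-value is not taken as support. Hoxd1, the most 3′ gene, rose by 4.30 (SE 0.11).

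Hoxd9, Hoxd10 and Hoxd13 were singled out after their values were seen, because the first and the last were measured on all 3 RA arrays and Hoxd10 on none. Hoxd9, a gene of limb and lumbar patterning, had -8.19, -8.27 and -7.21 in DMSO and -2.97, -2.99 and -3.32 in RA. It rose at least 7.96-fold under the processing used here (fitted 4.80, 1.44 to 5.14 over the alternatives, SE 0.29, limma adjusted p = 1.69e-05). As it passed the filter on low values only through RA, this p-value adds no support. Hoxd10, whose upstream sequence is printed beside that of Hoxd9 above, had -7.32, -8.05 and -7.13 in DMSO and -7.71, -6.74 and -7.23 in RA. Its groups overlapped and no array was well above background, so it has no test and only an upper limit in both groups. Hoxd13, a factor of the digits, had -4.91, -5.17 and -4.97 in DMSO and -2.96, -2.48 and -2.64 in RA. It was measured on every array, the groups did not overlap, and it rose by 2.33 (SE 0.14, adjusted p = 1.56e-05), 5.02-fold.

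Cluster A, on chromosome 6, rose least. Of its 10 members 7 rose, with a median of 3.41, and the other 3 (Hoxa10, Hoxa11 and Hoxa13) were dim in both groups. Hoxa5, a gene of the lung and the neck skeleton, had -5.66, -5.75 and -5.70 in DMSO and 0.24, 0.22 and 0.46 in RA. The arrays were tight and far apart, with a difference of 6.01 (SE 0.08, limma adjusted p = 8.99e-08), 64.5-fold. Hoxa3, needed for thymus and parathyroid, had -3.55, -3.22 and -3.39 in DMSO and 1.78, 1.83 and 2.07 in RA. Its difference was 5.28 (SE 0.12, adjusted p = 3.12e-07), 38.8-fold, with no overlap. Hoxa2, which patterns the second branchial arch, had -5.48, -5.26 and -5.55 in DMSO and -0.45, -0.31 and -0.17 in RA. Its arrays did not overlap either, and the difference was 5.12 (SE 0.11, adjusted p = 2.54e-07), 34.8-fold. Hoxa4 (3.41), Hoxa7 (3.22) and Hoxa9 (1.86) rose less, and another, dimmer Hoxa9 probe gave 1.24.

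Hoxa6 was chosen after its values were seen, as the smallest rise of the family. Its levels were -4.42, -4.39 and -3.94 in DMSO and -4.02, -3.74 and -3.45 in RA, so that the lowest RA array lay below the highest DMSO array. The log2 difference was 0.51 (SE 0.19, limma adjusted p = 0.044). The call was lost without DMSO replicate 1 (0.43), DMSO replicate 2 (0.45), RA replicate 2 (0.52) or RA replicate 3 (0.37), under 4 other scalings (0.03 to 0.18), and with no filter on dim probes (adjusted p = 0.0585). The other paralog 6 genes, Hoxb6 and Hoxc6, differed by 9.27 and 9.26 in the same arrays. In the RefSeq annotation Hoxa6 lies within the span of Hoxa3, as do Hoxa4 and Hoxa5. Hoxb3 and Hoxb4, Hoxd3 and Hoxd4, and Hoxd10 and Hoxd11 overlap likewise, and shared transcripts of such pairs cannot be told apart here.

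Beyond paralog 9 most members could not be tested, so the end of the response along clusters A, C and D was not resolved. All 26 members of paralogs 1 to 9 rose, but 6 of them were dim in DMSO and passed the filter only through RA. A further 3 (Hoxb8, Hoxc6 and Hoxd8), measured on 1 or 2 DMSO arrays, also needed RA arrays to pass. The call of Hoxa6 was lost under several alternatives. Of the 8 members of paralogs 10 to 12 none was well above background on all 3 RA arrays and 0 were tested. These 8 and Hoxa13 had levels between -8.28 and -4.82 over all RA and DMSO arrays. With no filter, 5 of these 9 were called higher by limma, against 40.3% of all 20660 genes: Hoxc10 (1.91), Hoxa13 (1.12), Hoxc11 (0.71), Hoxd12 (0.69) and Hoxa11 (0.65). Taking in the dim genes raised the calls higher from 5742 of 16015 genes to 8336 of 20660. The median of all genes went from -0.07 to 0.20. A rise near background was therefore common, and these 5 calls do not show that the response reaches these genes. In each of the 5 the RA arrays lay above the DMSO arrays without overlap. Over all genes passing the filter this held for 37.4%, and the share among dim genes was not computed. Hoxc10, the only one with an array well above background (RA replicate 2), had -6.03, -8.04 and -8.07 in DMSO and -5.98, -4.82 and -5.61 in RA. Hoxa10, Hoxc12, Hoxd10 and Hoxd11 overlapped between the groups and were not called with no filter either. For the 8 of these 9 without a measurable array, both groups give only an upper limit, which is not an absence. The 4 genes of paralog 13 had different outcomes: Hoxd13 rose, Hoxb13 fell, Hoxc13 did not pass and Hoxa13 was dim.

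Among the members that responded, the size of the difference did not follow paralog number in 1 direction. The median log2 difference was 5.53 for paralogs 1 to 3 (range 4.30 to 6.92, n = 7), 6.53 for paralogs 4 to 8 (0.51 to 10.39, n = 15) and 5.92 for paralog 9 (1.86 to 9.97, n = 4). With dim members at their bounds these medians were 5.53, 6.01 and 5.02. Spearman's rho between paralog number and difference was 0.07 over the 26 members of paralogs 1 to 9 (-0.02 at the bounds), -0.64 in cluster A (n = 7) and 0.47 in cluster B (n = 9). It was 0.40 in cluster C and 0.10 in cluster D over 5 members each, where the bounds gave 0.10 and -0.30. These are correlations across genes that share the same 6 arrays, and genes are not independent replicates. Read by cluster over paralogs 1 to 9, the medians were 3.41 in A, 6.60 in B, 8.36 in C (7.47 at the bounds) and 5.05 in D. The order of these medians was not tested.

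**Figure D3:**
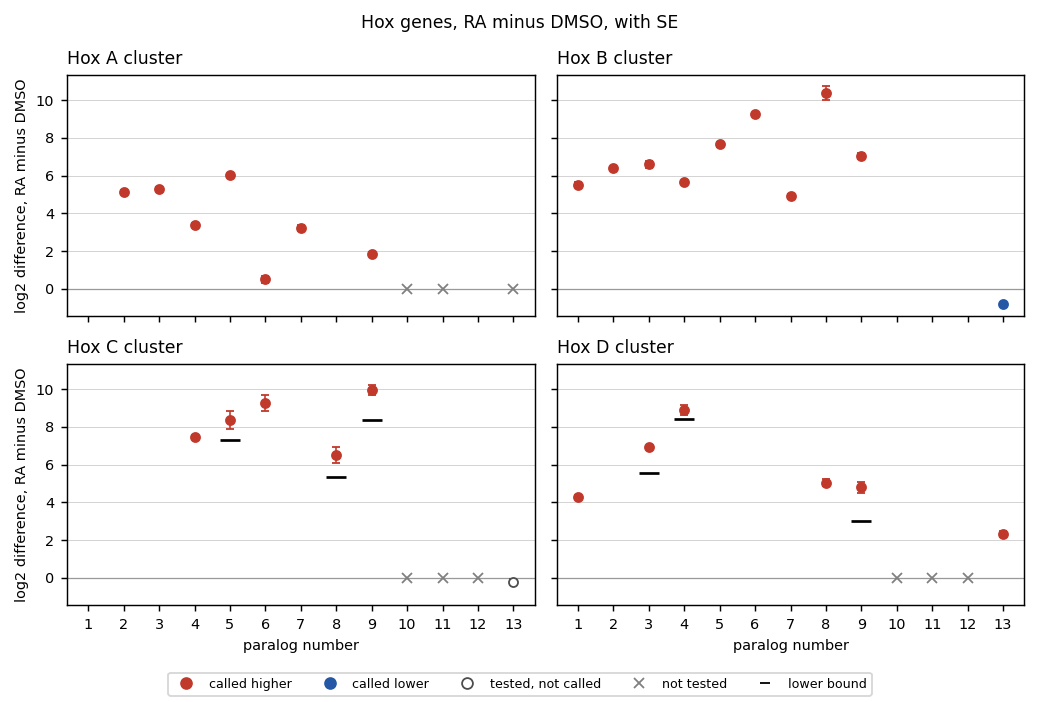
Log2 difference, RA minus DMSO, for each Hox gene by cluster and paralog number, with SE from limma (n = 3 per group). Red is called higher, blue called lower, open not called, a cross at 0 marks a member too dim to test, and black bars are the lower bounds of members dim in DMSO; every member of paralogs 1 to 9 is called higher, 9 of the 12 members beyond are too dim to test, Hoxd13 is called higher, and Hoxb13 lies below 0.

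Genes that work with or upstream of the Hox genes were taken from lists of known roles. Over all genes tested, 35.9% were called higher and 42.1% lower, the background for the list and marker counts in RA. Of the 9 TALE homeodomain cofactors, which bind DNA together with Hox proteins, 7 rose and 1 fell. Meis1 rose by 6.44 (SE 0.07), Meis2 by 4.22 (SE 0.10), and Pknox1 fell by 0.17 (SE 0.06). The median was 0.96, against -0.07 over all genes tested, and 5 to 8 of the list rose under the other scalings and background correction. Of 6 tested Cdx and hindbrain regulators, 3 rose and 1 fell, with a median of 0.87. The growth factor gene Fgf8 fell by 0.88 (SE 0.11). Cdx2, a direct regulator of central Hox genes, differed by 0.86 (SE 0.75) and did not pass, and Cdx4, Egr2 and Wnt3a were too dim to test. Of 14 retinoic acid receptors and response genes, 12 rose and 2 fell, with a median of 3.81. Under the other scalings and background correction 10 to 12 of the list rose, and Rxra and Rxrb changed sign with spike-in scaling. The retinoic acid degrading enzymes Cyp26b1 and Cyp26a1 rose by 9.95 (SE 0.16) and 8.34 (SE 0.08), while the receptor genes Rarg and Rara fell by 3.66 (SE 0.09) and 0.80 (SE 0.07).

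The Polycomb and trithorax list, whose products hold Hox clusters silent or active, moved both ways. Of 19 tested, 6 rose and 12 fell, with a median of -0.54. The Polycomb chromodomain gene Cbx8 rose by 3.26 (SE 0.13). Phc1, of the first repressive complex, fell by 3.22 (SE 0.09), and Jarid2, of the second, fell by 1.89 (SE 0.09). Of 14 tested non-Hox genes beside the clusters, 6 rose and 4 fell, against 35.9% and 42.1% of all genes. Their median was 0.03, and the split was 2 and 7 under median and spike-in scaling. Among them Skap1, beside cluster B, rose by 3.91 (SE 0.08), Smug1, beside cluster C, by 1.14 (SE 0.08), Ttll6 fell by 1.57 (SE 0.16) and Snx10 by 1.19 (SE 0.10). Of 17 noncoding RNA genes within the clusters, 2 had a probe and 1 was tested: Hoxa11os, antisense to Hoxa11, rose by 0.30 (SE 0.07), with a change of sign under 4 other scalings.

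Markers of cell state moved with the Hox genes. Pluripotency markers gave 9 falls and 1 rise of 10 (median -4.84), and their summed level, on the same log2 scale, was 6.39 to 6.56 in RA and 9.24 to 9.28 in DMSO. Fibroblast markers gave 7 rises and 1 fall of 8 tested (median 4.04), with a summed level of 5.27 to 5.37 in RA and 1.09 to 1.20 in DMSO, while Lum, Postn, Prrx1 and Fap were too dim to test. Primitive endoderm markers rose in 8 of 8 (median 2.52; summed 4.98 to 5.22 in RA, 3.50 to 3.64 in DMSO). Neuroectoderm markers gave 5 rises and 2 falls of 7 tested (median 2.46; summed 4.88 to 4.98 in RA, 1.78 to 1.80 in DMSO). Blood and endothelium markers gave 3 rises and 1 fall of 5 tested (median 0.50, summed -0.71 to -0.54 in RA, -0.80 to -0.68 in DMSO). Under quantile, median and spike-in scaling and the authors' series values this list gave 1 rise and 1 fall. Another background correction gave 4 rises and 1 fall. The part of these cell states in the Hox result was not tested, and in bulk RNA more cells of a type and more RNA per cell cannot be told apart.

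With vitamin C, 1 Hox gene differed from water by the test. Of 20 members tested, 0 rose and 1 fell, against 6.59% called higher and 10.6% called lower among 14530 genes tested with limma, so neither share stands away from the background. At an unadjusted limma p under 0.05 there were 6 of 20, no larger a share than the 5034 of all 14530 genes tested. The median log2 difference was -0.14 against -0.000569 over all genes, 14 of 20 members were below 0, and the range ran from -0.56 (Hoxd3) to 0.50 (Hoxd9). Arrays did not overlap for 5 members, Hoxa7, Hoxb2, Hoxb7, Hoxb9 and Hoxd13, each lower in VC, against 21.9% of all genes that were lower without overlap. No Hox gene was among the 100 largest rises.

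Hoxb7, a trunk gene, was the member that passed. It had -2.32, -2.24 and -2.28 in ddH2O and -2.63, -2.57 and -2.57 in VC. Each VC array was below each ddH2O array. The log2 difference was -0.31 (SE 0.05, limma adjusted p = 0.0165), or 1.24-fold lower. On the 1 slide that held both groups (2 arrays each) it was -0.34, and between the other slides -0.25. With slide as a fixed block the adjusted p was 0.0802, and no gene of the array was called in that fit. With slide as a random block it was 0.0142, and 1046 genes were called higher and 1641 lower. The call was also lost without ddH2O replicate 2 (adjusted p = 0.0723) and without VC replicate 1 (adjusted p = 0.0624).

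The largest differences that did not pass were in cluster D and rested on dim or scattered arrays. Hoxd3 had -5.80, -5.39 and -5.59 in ddH2O and -5.68, -5.77 and -7.02 in VC, where VC replicate 3 alone was low. Its difference was -0.56 (95% confidence interval -1.42 to 0.29). Hoxd9 had -5.94, -5.31 and -4.91 in ddH2O and -4.66, -5.06 and -4.95 in VC, overlapping, with 0.50 (-0.12 to 1.12), and another, dimmer probe gave -0.23. Hoxd4 had -4.44, -4.32 and -4.16 in ddH2O and -5.21, -4.16 and -4.93 in VC, also overlapping, with -0.46 (-1.08 to 0.16). Without VC replicate 2 it was -0.76 and passed.

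The 95% confidence intervals of the 20 tested members were 0.242 to 1.72 log2 units wide, with a median of 0.658. In cluster B, Hoxb13 differed by 0.05 (95% confidence interval -0.08 to 0.18), Hoxb1 by 0.02 (-0.32 to 0.36), Hoxb5 by -0.12 (-0.33 to 0.09) and Hoxb6 by -0.09 (-0.37 to 0.18). Hoxb2 (-0.16), Hoxb3 (-0.32), Hoxb4 (-0.31) and Hoxb9 (-0.41, limma adjusted p = 0.0605) were lower without passing. Another Hoxb9 probe gave -0.13 and another Hoxb3 probe -0.35. Hoxb3 passed as lower with the mean over probes (-0.33). Hoxb9 passed as lower with the filter on all 6 arrays and with trend and robust fitting (-0.41 in each). In cluster A, Hoxa6 differed by 0.38 (-0.20 to 0.96), Hoxa4 by 0.27 (-0.22 to 0.76) and Hoxa3 by 0.21 (-0.15 to 0.58), while Hoxa7 gave -0.08 and Hoxa9 -0.34. Hoxc12 (-0.11, interval -0.56 to 0.34), Hoxd1 (-0.37) and Hoxd13 (-0.29) complete the tested members. The cluster medians were 0.21 in A (n = 5), -0.16 in B (n = 9) and -0.37 in D (n = 5). The 15 members with a probe that were too dim to test were Hoxa2, Hoxa5, Hoxa10, Hoxa11, Hoxa13, Hoxb8, Hoxc5, Hoxc8, Hoxc9, Hoxc10, Hoxc13, Hoxd8, Hoxd10, Hoxd11 and Hoxd12.

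**Figure D4:**
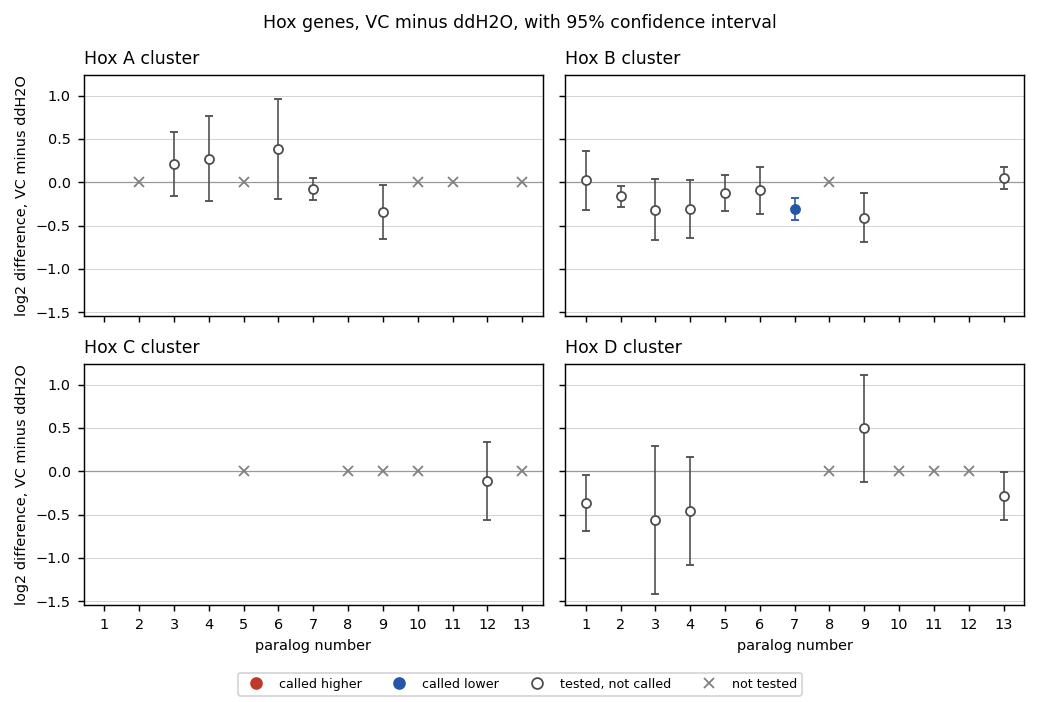
Log2 difference, VC minus ddH2O, for each Hox gene with a probe, by cluster and paralog number, with the 95% confidence interval from limma (n = 3 per group). Crosses at 0 are members too dim to test; the intervals of 14 of the 20 tested members span 0, and Hoxb7 (blue) is the 1 gene that passed.

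The lists around the Hox genes had medians from -0.47 to 0.08 in VC. Over all genes tested, 6.59% were called higher and 10.6% lower, the background for the counts below. Of 9 TALE cofactors 0 rose and 0 fell by limma, with a median of -0.11. Of 8 tested Cdx and hindbrain regulators 1 rose, Gbx2 by 0.45 (SE 0.08), and 3 fell (list median -0.47), led by Egr2 (-0.59, SE 0.11) and Fgf8 (-0.52, SE 0.06). Retinoic acid receptors and response genes gave 4 falls of 13 (median -0.16), among them Cyp26b1 (-0.60, SE 0.09) and Rxrg (-0.45, SE 0.08). The chromatin list gave 2 rises, Pcgf2 (0.56, SE 0.14) and Kdm6a (0.23, SE 0.05), and 2 falls, among them Cbx8 (-0.88, SE 0.18), of 19. Non-Hox neighbours gave 2 falls of 15, Ttll6 (-0.61, SE 0.07) and Skap1 (-0.44, SE 0.09), and no noncoding RNA gene was tested. Pluripotency markers gave 4 rises of 8 (median 0.25; summed level 9.21 to 9.32 in VC, 9.11 to 9.31 in ddH2O). Fibroblast markers gave 3 falls of 9 (median -0.32; 1.61 to 1.68 against 1.97 to 2.09), blood and endothelium markers 1 of 4, primitive endoderm markers 1 of 7 and neuroectoderm markers 2 of 6. Their part in the Hox values was not tested.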

How the data were processed

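Total RNA of 12 samples in 4 groups was measured on 1-colour Agilent arrays of 2 designs. The deposited scanner files hold processed spot intensity, background-subtracted, per the file headers, by version 10.7.3.1 of Feature Extraction (10.7 in the submitters' processing notes). The deposited series table holds log2 values whose column medians are equal within a design (5.18 and 5.96) and that correlate with the scanner values at 0.9996 to 1.0, so the scale is log2, while the scaling the authors applied between arrays was not given in the sources used here. Those values served as an alternative.

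Here the log2 processed intensity minus the array's 75th percentile was used, without outlier spots. Each accession was named through RefSeq (GRCm38.p6, names only), and each gene was represented by its brightest probe. A gene was tested if 3 or more of the 6 arrays showed that probe well above background, with limma 3.58.1 in R 4.3.3 and Benjamini-Hochberg adjustment over all genes tested, called at 0.05. The 2 designs were fitted apart. For a member dim in all DMSO arrays, a lower bound of the fold was computed, which holds for this processing only. The fits were tested on simulated data. With 3 against 3 samples an exact permutation test cannot give a p under 0.1, so none was used for single genes. The number of arrays limits the precision.

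The members and lists were chosen with earlier results of these data known. Every member is given: values per array for the 3 largest fitted rises of each cluster, each fall and each tested gene that did not pass in RA, and in VC for each called gene and the 3 largest differences. From the other lists, up to 2 rises and 2 falls by size are named. Some genes are not reported here. Samples with the same replicate number did not deviate together (correlations -0.06 to 0.00 in RA and DMSO, -0.12 to 0.06 in VC and ddH2O), so no pairing was used. Slides served as a fixed and as a random block where 1 slide held both groups. Alternatives were other scalings, background correction, filters on dim probes, choice of probe, variance model, thresholds, blocks and leaving out each sample.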

Additional observations from a re-analysis of the deposited data

How the results depend on the processing

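In RA, 27 members rose and 1 fell. Quantile, median and spike-in scaling and the authors' series values each gave 26 and 2, normexp background correction 28 and 1, no filter on dim probes 31 and 1 of 38, and a filter on all 6 arrays 18 and 1 of 20. A 2-fold minimum gave 26 and 0. Without 1 array in turn the counts were 20 to 27 rises and 1 to 2 falls, with 2 falls without RA replicate 3; 23 members could be tested when an RA array was left out. The replicate block gave 27 and 1, and the numbers do not pair samples. A slide block was not run in RA, where each slide held 1 group. The median difference of 5.65 became 5.31 with median scaling, 5.17 with spike-in scaling, 5.76 with the authors' values, 4.14 with normexp, 4.99 with no filter, 5.20 with the filter on all 6 arrays, and 5.53 with members at their bounds, an alternative chosen after seeing the data. It was 5.19 to 5.67 without 1 array. Median and spike-in scaling moved the median of all genes by -0.34 and -0.48 and the share of rises among all calls from 46% to 31.1% and 25.3%. Hoxc13 reversed to 0.31 with normexp; the cause was not tested.

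In VC, 0 members rose under any alternative, and 1 fell. None fell with normexp, the replicate block (Hoxb7 adjusted p = 0.05001 by limma), the fixed slide block (0 genes called, 3889 at an unadjusted p under 0.05), a threshold of 0.01 or a 2-fold minimum. A random slide block kept 1. There were 2 falls with the filter on all 6 arrays and with trend and robust fitting (Hoxb7 and Hoxb9). The mean over probes also gave 2 (Hoxb7 and Hoxb3). Without 1 array there were 0 to 3, with 3 (Hoxb7, Hoxd4, Hoxd13) without VC replicate 2. The median of -0.14 became -0.093 with median scaling and -0.086 with normexp, and was -0.231 to -0.081 without 1 array. The share of rises among all calls was 38.5%, 56.6% with median and 49.3% with spike-in scaling. By the flag for signal positive and significant over background, 29 members in ddH2O, 28 in VC, 27 in DMSO and 31 in RA were detected on all 3 arrays, and 3 in DMSO and 2 in RA on none (15 and 8 by the flag used). Over single genes and alternatives, 535 values in RA kept their direction and side of the threshold. In VC 419 values kept their side of the threshold. Among those, uncalled values changed sign for Hoxb1 (4 alternatives) and for Hoxb6, Hoxb13 and Hoxc12 (1 each). In RA and VC, 12 and 7 values lost a call, and 5 and 5 gained one. Signal near background limits what can be said of paralogs 10 to 12.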
